A study of Mus musculus with 6 samples.

Results

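Ifitm5 and its relatives of the Ifitm family were followed in MC3T3-E1 osteoblast (OB) cultures given ascorbic acid (AA) and in untreated control cultures. The family comprised 7 genes, Ifitm5, Ifitm1, Ifitm2, Ifitm3, Ifitm6, Ifitm7 and Ifitm10, and every probe set whose platform annotation names a member was taken, which gave 7 of the 45101 probe sets on the array, 1 per gene and none shared with another gene. Ifitm5 was chosen by its increase between the groups in these same arrays, that is by its signals in the same contrast, so its change is described here without a test, whereas the 6 relatives were taken by family name and were tested. RNA came from 3 cultures treated with 50 µg of AA (the methods give this amount per ml) for 5 days and 3 cultures left untreated for 5 days, both of MC3T3-E1 subclone 4, a clonal mouse calvarial pre-osteoblast line grown in α-MEM with serum. The platform was the Affymetrix Mouse Genome 430 2.0 array, with 1 array per culture. The sources speak both of triplicate wells and of triplicate experiments, so the p-values may measure only the spread between wells.

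The IFITM proteins are short membrane proteins that share the CD225 domain and carry fatty acyl (palmitoyl) groups on cysteines. Ifitm1, Ifitm2 and Ifitm3 are induced by interferons, and their products hinder the fusion of enveloped viruses with cell membranes, at the cell surface or in endosomes. Ifitm5, also called Bril, is not known as an interferon target, is largely restricted to bone-forming cells, and its human counterpart is mutated in a form of osteogenesis imperfecta. AA is a co-factor of the enzymes that hydroxylate collagen, and pre-osteoblasts given AA lay down a collagen matrix and differentiate.

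In the RefSeq annotation of GRCm38.p6, Ifitm5, Ifitm2, Ifitm1, Ifitm3 and Ifitm6 lie in this order on chromosome 7, Ifitm10 lies elsewhere on chromosome 7, and Ifitm7 is on chromosome 16. RefSeq-based promoter windows, 250 bases before to 50 after the annotated start, were matched for 7 of the 7 genes. The windows of Ifitm5, of its nearest relative along the chromosome, Ifitm2, and of Ifitm3 are printed because these neighbouring genes behaved differently in the cultures. All 3 are on the minus strand of GRCm38.p6, Ifitm5 at chr7:140950194-140950493, Ifitm2 at chr7:140955912-140956211 and Ifitm3 at chr7:141010695-141010994, and are written 5′ to 3′ along the gene. Capitals mark matches, on either strand, to the core of the interferon-stimulated response element (ISRE, searched as GAAA, any 2 bases, GAAA), the gamma-activated site (GAS, TTCNNNGAA), the GC box bound by Sp-family factors (GGGCGG) and a core RUNX motif (TGTGGT).
Ifitm5: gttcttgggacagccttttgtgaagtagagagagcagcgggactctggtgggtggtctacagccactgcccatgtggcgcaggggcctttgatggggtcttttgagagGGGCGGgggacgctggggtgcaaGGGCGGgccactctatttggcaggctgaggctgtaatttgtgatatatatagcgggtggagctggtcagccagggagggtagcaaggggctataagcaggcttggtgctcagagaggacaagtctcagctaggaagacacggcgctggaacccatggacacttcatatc
Ifitm2: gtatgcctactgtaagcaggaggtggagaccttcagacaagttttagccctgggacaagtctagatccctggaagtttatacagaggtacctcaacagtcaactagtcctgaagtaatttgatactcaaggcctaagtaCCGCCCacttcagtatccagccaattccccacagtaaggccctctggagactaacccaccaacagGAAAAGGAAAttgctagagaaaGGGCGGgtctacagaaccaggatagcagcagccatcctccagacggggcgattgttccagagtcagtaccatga
Ifitm3: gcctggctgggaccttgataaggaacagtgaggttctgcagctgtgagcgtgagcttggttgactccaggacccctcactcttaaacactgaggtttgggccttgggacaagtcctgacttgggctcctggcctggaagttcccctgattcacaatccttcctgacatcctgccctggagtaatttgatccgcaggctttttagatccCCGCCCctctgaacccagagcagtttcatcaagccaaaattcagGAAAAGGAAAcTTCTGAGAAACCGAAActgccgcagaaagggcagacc

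The Ifitm5 window held 2 GC boxes, at -142 to -137 and -119 to -114 from the annotated start, and no match to the ISRE core, the GAS or the RUNX letters. The Ifitm2 window held 1 ISRE core, at -46 to -37, and 2 GC boxes. The Ifitm3 window held 2 ISRE cores, at 3 to 12 and 20 to 29, and a GAS at 14 to 22 that overlaps the second, besides 1 GC box. Among all 32851 promoter windows of this length, 3.44% held the ISRE core, 8.30% the GAS, 35.7% the GC box and 16.8% the RUNX letters. The counts that follow are by gene and not by window, and any window of a gene could match. The ISRE core was found in 20 of the 42 interferon-stimulated genes listed below that have a window. Of 19 mineralizing osteoblast genes with a window, 1 held it. In the same order, the GAS was in 11 and 0 genes, the GC box in 18 and 8, and the RUNX letters in 9 and 7. No ISRE core was found in the windows of Ifitm1, Ifitm6, Ifitm7 or Ifitm10. A match is a run of letters only, and binding was not measured.

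The deposited values are linear MAS5 signals, which were converted to log2, quantile-normalized and, for 45037 probe sets, analysed in limma with a block term for replicate number. Fold changes are AA over control from that fit, whereas signals are given as deposited. Adjusted p is the Benjamini-Hochberg value over all 45037 probe sets, and on simulated data this fit made more false calls than that threshold allows when each probe set kept its own spread. The labels give a replicate number and do not say what same-numbered cultures shared, so standard errors and intervals rest on a block that is not established as a pairing. Array quality was alike in both groups except for control replicate 3, whose 3′ to 5′ signal ratio of the actin control probe sets was 1.79, against 1.35 to 1.45 on the other 5 arrays. The Pearson coefficient between arrays of the same group was 0.941 to 0.946 (log2 signal, all probe sets). With 3 arrays against 3, an exact two-sided permutation test of a single value cannot go below p = 0.1. Because these are bulk cultures, more cells that express a gene and more RNA per cell cannot be told apart.

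Ifitm5 was the member with the widest separation between the groups. Its signal was 3729, 2017 and 1704 on the AA arrays, against 226, 87.7 and 61.1 on the control arrays. All AA values lay above all control values, and the lowest AA signal was 7.53 times the highest control signal. Replicate 1 was highest within each group. The mean signal was 2483 ± 1090 (SD, n = 3) in AA cultures and 125 ± 88.6 (SD, n = 3) in control cultures. The log2 fold change was 4.43 (standard error 0.14, 95% interval 4.10 to 4.75), which is 21.5-fold, and the standard error was 0.42 in the fit with no block. Within the 3 replicate numbers the differences were 3.96, 4.54 and 4.77. By this value, the one that led to its choice, Ifitm5 ranked 2 among 18193 genes read by their brightest probe set, and it ranked 1 when 50 was added to every signal, where the log2 fold change was 3.86. In the fit with no block, it was 4.97 without control replicate 1, the control culture with the highest Ifitm5 signal. Leaving out control replicate 3, which had the lowest Ifitm5 signal and the actin ratio of 1.79, gave 4.05. The part of RNA quality in this was not tested.

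**Figure D1:**
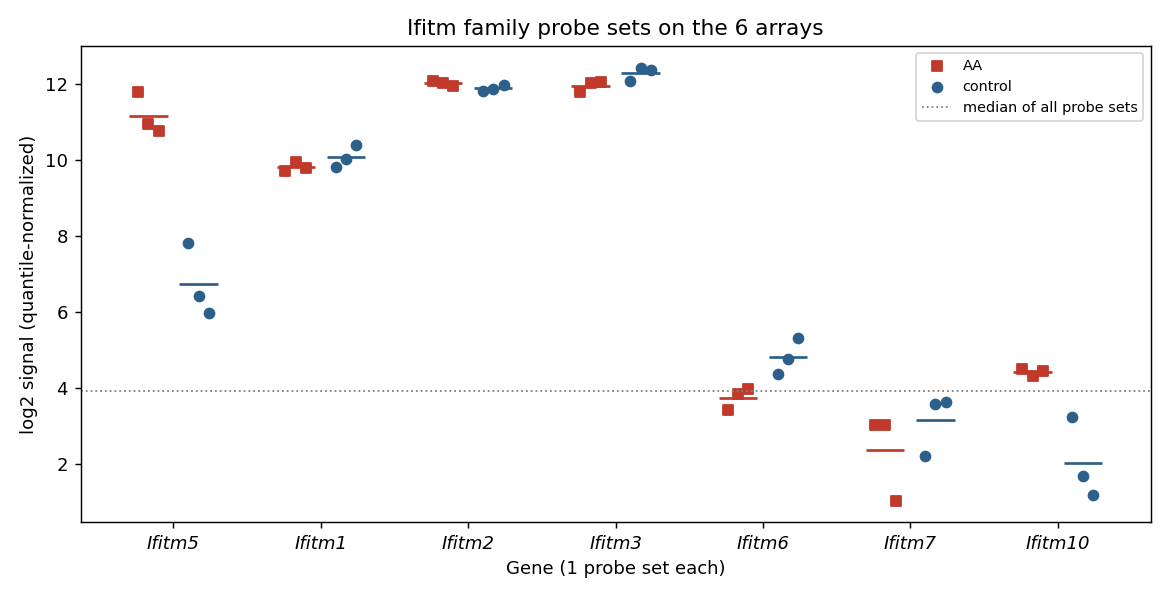
Log2 quantile-normalized signal of the 7 Ifitm probe sets, with the 3 AA cultures as squares left of the 3 control cultures as circles, short lines at the group means and a dotted line at the median of all probe sets. Ifitm5 has means of 11.2 in AA and 6.73 in control cultures, both above the dotted line, whereas the AA arrays of Ifitm10 lie just above that line and its control arrays below it.

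None of the 6 relatives came near this increase. By limma 1 of the 6, Ifitm10, was higher in AA cultures, 1, Ifitm3, was lower, and 4 did not pass an adjusted p of 0.05, while among all 45037 probe sets 2.71% were called higher and 2.50% lower. After quantile normalization, all 3 AA arrays lay above all 3 control arrays for 1 relative (11.0% of all probe sets) and below them for 2 (12.0% of all probe sets). These counts of 1 or 2 genes are too small to set the relatives apart from the array as a whole. Set against Ifitm5, the log2 change of each relative was smaller by 2.03 (Ifitm10) to 5.50 (Ifitm6) on average over the replicate numbers, a description that rests on the choice of Ifitm5. For Ifitm10 the differences within the replicate numbers were 2.69, 1.89 and 1.51, and for Ifitm3 they were 4.25, 4.96 and 5.10.

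Ifitm3, the member best known for restricting viruses that enter through endosomes, was modestly lower in AA cultures, and this depended on the processing. Its signal was 3735, 4359 and 4103 on the AA arrays, against 4250, 5053 and 5150 on the control arrays. The deposited values overlapped, since AA replicate 2 exceeded control replicate 1, whereas the normalized values did not. The log2 fold change was -0.34 (standard error 0.07, 95% interval -0.49 to -0.19, adjusted p = 0.0252 from limma), and the normalized value was lower in AA in 3 of 3 replicate numbers. In limma fits the adjusted p was 0.116 with no block, 0.181 on the signals as deposited and 0.370 after median centring. It also missed the threshold in the paired fit without replicate 1 (adjusted p = 0.0544) or replicate 2 (adjusted p = 0.176), and the adjusted p ran from 0.00536 to 0.460 over all alternatives.

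Ifitm2, which in the mouse lies next to Ifitm5, was bright on every array and did not pass. Its signal was 4634, 4430 and 3860 on the AA arrays, against 3560, 3446 and 3933 on the control arrays. The groups overlapped through control replicate 3. The log2 fold change was 0.13 (standard error 0.08, adjusted p = 0.417 from limma, 95% interval -0.04 to 0.31). Ifitm1, whose product sits mainly at the cell surface, had signals of 836, 975 and 886 on the AA arrays, against 890, 1037 and 1333 on the control arrays. Control replicate 3 stood above the rest, and the other arrays of both groups overlapped. Its log2 fold change was -0.25 (95% interval -0.50 to -0.00493, adjusted p = 0.266 from limma). Without control replicate 3, the array with the actin ratio of 1.79, it was -0.10 in the fit with no block, and the part of RNA quality in it was not tested. Ifitm1, Ifitm2 and Ifitm3 are close paralogs, and cross-hybridization between their probe sets was not tested.

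The 3 dim members gave signals near or below the median of all probe sets, so their folds are less certain. Ifitm10, a conserved member whose function is little known, had signals of 22.6, 20.8 and 21.7 on the AA arrays, against 8.57, 3.49 and 2.06 on the control arrays. The AA arrays agreed closely and lay above every control array. The log2 fold change was 2.39 (standard error 0.51, 95% interval 1.23 to 3.56, adjusted p = 0.0348 from limma), and 0.38 with 50 added to every signal (adjusted p = 0.0308). The call was lost without replicate 2 (adjusted p = 0.143) and without replicate 3 (adjusted p = 0.0846) in the paired fit. It was also lost in the unpaired fit when any array but control replicate 1 was left out (adjusted p of 0.0851 to 0.130). Leaving out control replicate 3, its lowest array, gave a log2 fold change of 1.97 in that fit. Ifitm10 was read by a probe set whose mean signal ranked at the 42.5 percentile of the array, and since the table has no detection calls it could not be told whether the control arrays measured it above background.

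Ifitm6, a paralog found in the mouse and best known from myeloid cells, pointed the other way. Its signal was 11.0, 14.9 and 15.6 on the AA arrays, against 19.4, 28.9 and 37.8 on the control arrays. All AA values lay below all control values. The log2 fold change was -1.07 (standard error 0.29, 95% interval -1.73 to -0.41, adjusted p = 0.0802 from limma). Testing only the probe sets above the median gave an adjusted p of 0.0295, but Ifitm6 passed that filter through its control arrays. Its normalized log2 mean was 4.81 in control and 3.74 in AA cultures, against a median of 3.93. That value is therefore no further support for the change. Leaving out control replicate 3, its highest array, gave -0.82 in the fit with no block. The part of RNA quality in the changes of Ifitm10 and Ifitm6 was not tested. Ifitm7 had signals of 8.32, 8.62 and 1.95 on the AA arrays, against 4.33, 13.1 and 11.5 on the control arrays. The groups overlapped, and the log2 fold change of -0.78 (95% interval -2.37 to 0.81, adjusted p = 0.635 from limma) had a wide interval. It was 0.13 without replicate 3, whose AA array was the lowest.

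Along chromosome 7 the increase of Ifitm5 was not matched by the genes beside it. Of the 12 nearest genes with a probe set, 6 on each side, 4 were the relatives described above and 8 lay outside the family. By limma 1 of these 8, Psmd13, which encodes a subunit of the proteasome lid, was higher in AA cultures (log2 fold change 0.58, standard error 0.11, adjusted p = 0.0203), none was lower and 7 did not pass. Its brightest probe set had signals of 459, 410 and 406 on the AA arrays, against 377, 266 and 241 on the control arrays. Over genes read by their brightest probe set, 4.06% were called higher and 3.83% lower. Pgghg, immediately before Ifitm5 in the annotation, had signals of 296, 274 and 246 on the AA arrays, against 258, 224 and 293 on the control arrays. These overlapped (log2 fold change 0.11, 95% interval -0.18 to 0.40, adjusted p = 0.721 from limma), so the 2 measured genes that flank Ifitm5, Pgghg and Ifitm2, had upper bounds of 0.40 and 0.31. The remaining neighbours were Ric8a (0.29, adjusted p = 0.204), Sirt3 (-0.34, adjusted p = 0.397) and the dim Cox8b, Nlrp6, B4galnt4 and Pkp3, whose log2 fold changes of -0.10 to 0.55 had adjusted p of 0.736 to 0.990 from limma.

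**Figure D2:**
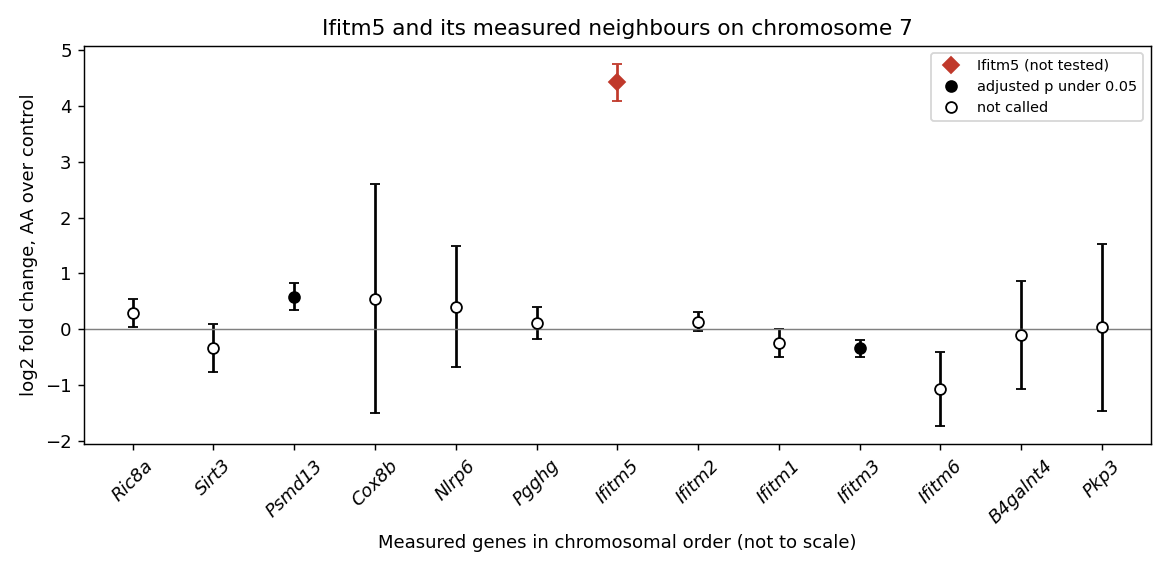
Log2 fold change, AA over control, with 95% intervals from the limma fit, for Ifitm5 (diamond, not tested) and the 6 nearest measured genes on each side, in their order on chromosome 7. Filled circles passed an adjusted p of 0.05. Ifitm5 stands at 4.43, and the highest of the 12 neighbours is Psmd13 at 0.58.

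IFITM5 has been described in a membrane complex with the ER prolyl isomerase FKBP11, the tetraspanins CD81 and CD9, and PTGFRN, an immunoglobulin-superfamily partner of tetraspanins. Of 6 measured genes on a list of these and other members of tetraspanin complexes, 2 rose and none fell by limma, against 4.06% higher and 3.83% lower of all genes. At an unadjusted p under 0.05 there were 2 higher and 0 lower, against 3864 and 4236 of all 45037 probe sets. The median log2 fold change of the list was 0.14. Fkbp11 had signals of 1179, 1051 and 1052 on the AA arrays, against 665, 507 and 603 on the control arrays, with no overlap. Its log2 fold change was 0.91 (standard error 0.08, adjusted p = 0.00107 from limma) on the brightest of 3 probe sets, and the dim others had -0.09 and 0.26 (adjusted p = 0.897 and 0.798). Ptgfrn had signals of 552, 340 and 287 on the AA arrays, against 171, 215 and 208 on the control arrays. These did not overlap, but AA replicate 1 stood well above the other AA arrays. Its log2 fold change was 0.97 (standard error 0.21, adjusted p = 0.0388 from limma), a call lost with 50 added to every signal (adjusted p = 0.103) and without replicate 2 (adjusted p = 0.0623), and a dim second probe set had -0.96 (adjusted p = 0.613). Cd9 had a fold change, in log2 units, of 0.19 (95% interval -0.00273 to 0.38, adjusted p = 0.285) and that of Cd81 was -0.11 (95% interval -0.27 to 0.05, adjusted p = 0.489). Cd151, also a tetraspanin, and Igsf8, a partner of tetraspanins, had 0.10 and -0.31 (adjusted p = 0.660 and 0.329).

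Interferon-stimulated genes, the class to which Ifitm1, Ifitm2 and Ifitm3 belong, had a median change slightly below 0. Of 53 measured genes on the list, 1 was higher in AA cultures (1.89%, against 4.06% of all genes), 6 were lower (11.3%, against 3.83% of all genes) and 46 did not pass limma, with a median log2 fold change of -0.17, where that of all genes was -0.02. At an unadjusted p under 0.05, 1 was higher and 14 were lower. Of all 45037 probe sets, 3864 were higher and 4236 lower at that threshold. The 6 were Tapbp, which loads peptides on MHC class I, the GTPases Gbp2 and Irgm1, Lgals3bp, the RNA sensor Ddx58 and the kinase Eif2ak2, with log2 fold changes of -1.05 to -0.56. Of the 3 probe sets of Eif2ak2 only the brightest was lower (-0.64, adjusted p = 0.0411), the others having 0.58 and 0.35 (adjusted p = 0.416 and 0.563). Its call was lost with no block (adjusted p = 0.0794) and without any 1 replicate (adjusted p of 0.0779 to 0.128). The dimmer probe sets of Ddx58 (-0.23 and -1.36, adjusted p = 0.628 and 0.401) and Tapbp (-0.28, adjusted p = 0.500) did not pass limma either. Lgals3bp and Ddx58 lost their calls with 50 added to every signal (adjusted p = 0.0506 for both). Without replicate 1 they also missed the threshold (adjusted p = 0.0712 and 0.0741). Gbp2 had signals of 41.0, 47.1 and 50.9 on the AA arrays, against 72.9, 105 and 116 on the control arrays, and both of its probe sets were lower (log2 fold change -1.05 and -1.16, adjusted p = 0.00895 and 0.0126 from limma). Xaf1 went the other way, with signals of 1602, 1155 and 849 on the AA arrays, against 855, 565 and 426 on the control arrays. These ranges met, and the log2 fold change of 0.98 (adjusted p = 0.000602 from limma) lost its call without the replicate block (adjusted p = 0.0704). Irf7, the transcription factor that amplifies the interferon response, stood at -0.09 on the log2 scale (adjusted p = 0.936), and Bst2, an antiviral membrane tether, at 0.59 (adjusted p = 0.342). Without replicate 2 none of the 6 remained called lower in the paired fit, and 3 were lower with 50 added to every signal.

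Upstream of these genes, 3 of 20 measured interferon ligands, receptors and signal transducers rose by limma and none fell, against 4.06% higher and 3.83% lower of all genes. At an unadjusted p under 0.05 there were 6 higher and 3 lower, against 3864 and 4236 of all 45037 probe sets. The kinase Jak1 had a log2 fold change of -0.22 on its brightest probe set (adjusted p = 0.181 from limma). Jak2, a kinase of the interferon gamma receptor, had a log2 fold change of 0.68 on its brightest probe set and 0.82 on the other (adjusted p = 0.00869 and 0.00791 from limma), the first lost without the replicate block (adjusted p = 0.0614). Ifngr2, a chain of that receptor, had 0.73 (adjusted p = 0.00965) on 1 of its 2 probe sets, and the inhibitor Socs1 had 0.95 (adjusted p = 0.0410), or 0.41 with 50 added to every signal (adjusted p = 0.0846), and its call was also lost without any 1 replicate (adjusted p of 0.103 to 0.109). The probe sets of the ligands Ifna1, Ifnb1 and Ifng were all below the median signal, and none passed (adjusted p = 0.562, 0.581 and 0.335).

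Among 21 measured genes of mineralizing osteoblasts, the setting in which Ifitm5 is known, 8 rose (38.1%, against 4.06% of all genes), 1 fell and 12 did not pass limma, with a median log2 fold change of 0.29. The list was drawn up with earlier results of these arrays known, so its count is no independent evidence. On their brightest probe sets the 8 had log2 fold changes of 0.67 to 1.65. Alpl, the alkaline phosphatase of mineralizing cells, had signals of 426, 287 and 304 on the AA arrays, against 135, 109 and 116 on the control arrays (log2 fold change 1.52, adjusted p = 0.000464 from limma). Ibsp, bone sialoprotein, had 1.53 on its brightest probe set and 3.22 on the other (adjusted p = 0.000549 and 0.000520). Smpd3, a sphingomyelinase needed for mineralization, rose by 1.05 and Tnfrsf11b, the decoy receptor osteoprotegerin, by 1.65 on the log2 scale (adjusted p = 0.000464 and 0.00614 from limma). Dmp1, of mature osteoblasts and osteocytes, had signals of 73.8, 10.4 and 9.48 on the AA arrays, against 5.14, 5.82 and 8.26 on the control arrays. AA replicate 1 stood far above the rest, and the mean of this probe set lay below the median signal. The log2 fold change of Dmp1 was 1.58 (adjusted p = 0.261 from limma). Ank, a pyrophosphate transporter, was lower (-0.37, adjusted p = 0.0252), a call lost after median centring (adjusted p = 0.0717). The parathyroid hormone receptor Pth1r rose by 0.85 on the log2 scale (adjusted p = 0.00268), and with no block the same fold change missed the threshold (adjusted p = 0.118). Of the remaining CD225-domain genes outside the Ifitm family, 5 were measured, 4 of them below the median signal, and none passed limma (0 at an unadjusted p under 0.05). Of 24 palmitoyltransferases, the enzyme class that acylates IFITM proteins, 1 (4.17%, against 3.83% of all genes) was lower and 23 did not pass. This was Zdhhc4 (-0.49, adjusted p = 0.0323), whose call was lost with 50 added to every signal (adjusted p = 0.0629) and without replicate 1 (adjusted p = 0.112) or replicate 2 (adjusted p = 0.136).

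**Figure D3:**
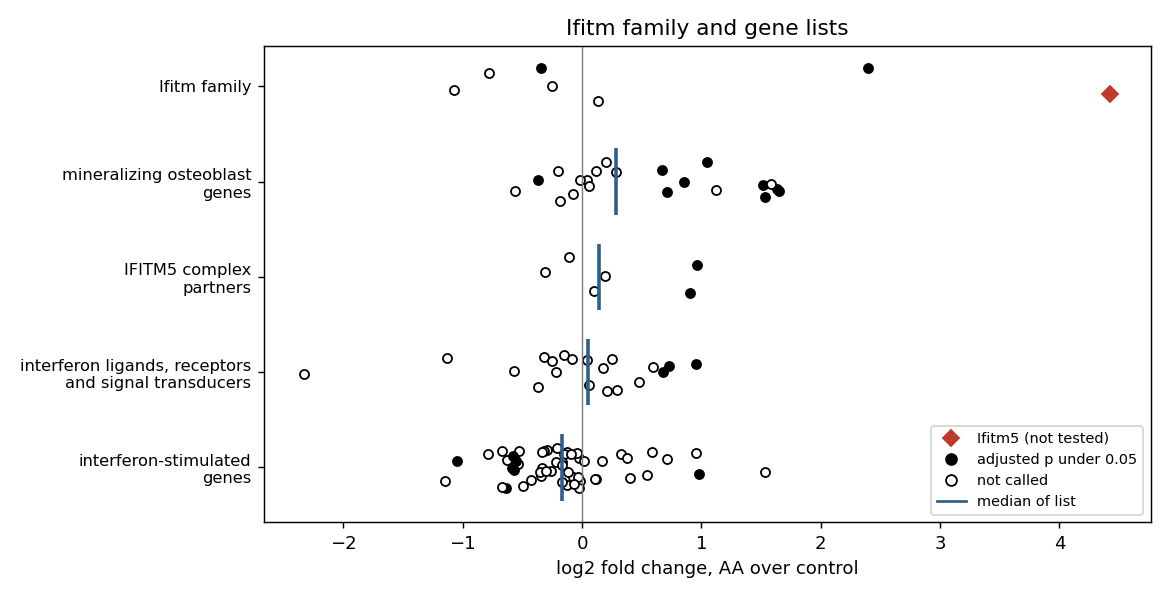
Log2 fold change, AA over control, of the 7 Ifitm genes and of the genes measured in 4 lists. Every point is a gene, offset vertically at random, and bars give list medians. Filled points passed an adjusted p of 0.05 from limma. Ifitm5 (diamond, not tested) lies at 4.43, beyond every gene of the lists, and the median of the interferon-stimulated genes lies at -0.17.

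Markers of other cell types were mostly dim. Of 12 macrophage and leukocyte markers 5 were above the median signal, and the summed signal was 526 to 597 on the AA arrays and 480 to 569 on the control arrays. Lyz2 made up the largest part of that sum, with signals of 344, 332 and 296 on the AA arrays, against 336, 382 and 416 on the control arrays. It did not pass (log2 fold change -0.18, adjusted p = 0.496 from limma), so the sum says little about the other markers. Csf1r, the receptor of the macrophage growth factor, alone passed limma (1 of 12, against 4.06% of all genes called higher). Its log2 fold change was 1.81 (adjusted p = 0.00168) on its brightest of 3 probe sets, the others having 0.21 and 1.54 (adjusted p = 0.720 and 0.0337 from limma). At an unadjusted p under 0.05, 2 markers, Csf1r and Cd14, were higher, against 3864 of all 45037 probe sets. The defining leukocyte gene Ptprc had signals of 2.16, 3.92 and 2.28 on the AA arrays, against 1.28, 0.411 and 1.87 on the control arrays. The part of such cells in the lower Ifitm6 signal was not tested. None of 6 endothelial, 5 adipocyte or 6 skeletal muscle markers passed limma (0 at an unadjusted p under 0.05). Of 6 chondrocyte markers, 1, Col2a1, was higher (1.18, adjusted p = 0.00352 from limma) and 5 did not pass, with a list median of -0.17. Over all genes 4.06% were called higher and 3.83% lower, and a count of 1 is too small to set such a list apart.

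The genes whose pattern over the 6 arrays was most like that of Ifitm5 were found by Pearson correlation of log2 normalized signals among 11126 genes with a higher-group mean above the median signal. The 10 with the highest coefficients were Tspan6, Grhpr, Gsn, Atg7, Fkbp7, 1110059G10Rik, Notum, Ubxn8, Slc41a2 and Ctsk, at r = 0.998 to 0.995. All points share the condition and the array, and 451 genes reached 0.95, so a high coefficient alone does not single out a gene. Replicate 1 was the highest array within both groups for Ifitm5 and for 10 of the 10, which follows from how they were picked. Notum, an extracellular Wnt deacylase, had the largest log2 fold change of the 10, with signals of 199, 103 and 110 on the AA arrays, against 21.9, 9.66 and 8.56 on the control arrays (log2 fold change 3.42). It became a candidate through its AA signals, since its control mean of 13.4 was below the median, and whether its control arrays were above background could not be told. The other 9 had log2 fold changes of 0.35 (Gsn, the actin-severing gelsolin) to 0.98 (Slc41a2, a magnesium transporter). Tspan6, a tetraspanin, had signals of 804, 719 and 683 on the AA arrays, against 488, 406 and 369 on the control arrays. Among the relatives, the coefficient with Ifitm5 was 0.967 for Ifitm10, 0.653 for Ifitm2, -0.476 for Ifitm7, -0.746 for Ifitm1, -0.914 for Ifitm3 and -0.961 for Ifitm6.

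**Figure D4:**
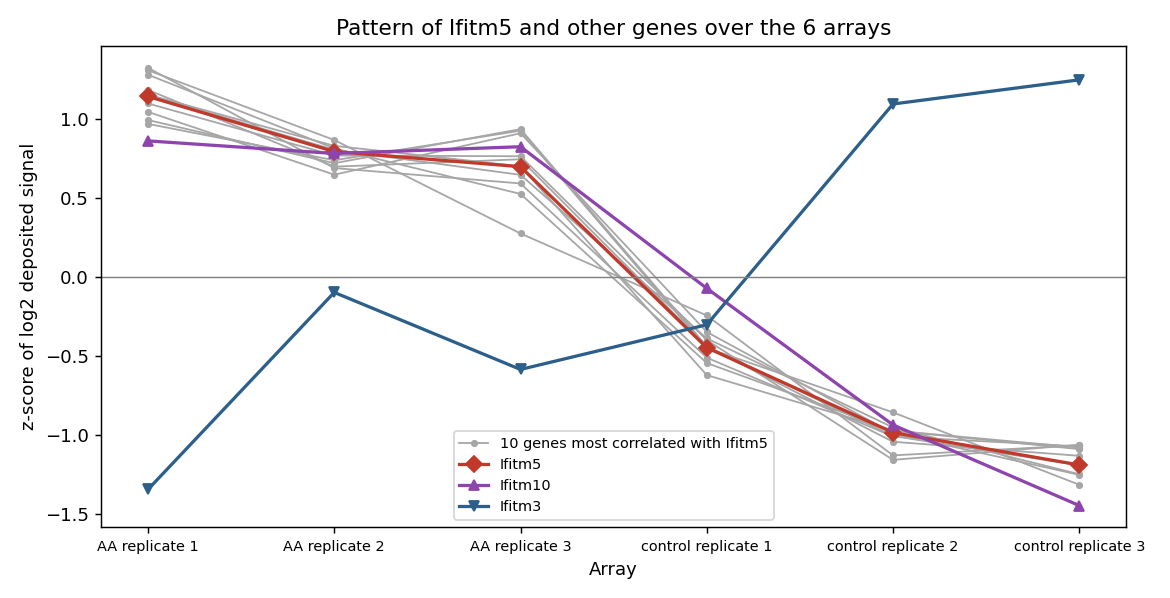
Log2 deposited signal of Ifitm5, Ifitm10, Ifitm3 and the 10 genes most correlated with Ifitm5, each scaled to a z-score over the 6 arrays, with the AA cultures left of the control cultures and lines joining 1 gene's points. Ifitm10 follows Ifitm5 (r = 0.967), and Ifitm3 runs against it (r = -0.914), both coefficients being those of the quantile-normalized signals and not of the plotted ones.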

How the data were processed

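RNA of 3 AA and 3 control cultures was read on 6 arrays, and groups and replicate numbers came from the sample titles. The deposited intensities are linear MAS5 signals that the authors scaled so that the trimmed mean (2% removed at each end) was 150 on each array. GC-RMA with quantile normalization, named in the study's methods, was not carried by these values. No detection calls were used, and the number of arrays limits the precision. The members and gene lists were chosen with earlier results of these data known. Signals were converted to log2, 64 control probe sets were left out, and the remaining 45037 were quantile-normalized and fitted with limma 3.58.1 in R 4.3.3 (replicate number as a block, empirical Bayes with a trend, 2 residual and 6.18 prior degrees of freedom, Benjamini-Hochberg adjustment, threshold 0.05). Paired tests are named in the methods. By platform annotation 34945 probe sets had 1 gene, 932 had several and 9160 had none, and each of the 18193 genes in lists and ranks was read by its brightest probe set. Named genes were all members, up to 6 passing genes a list and direction by p, all partners, the 6 nearest measured genes on each side of Ifitm5 and the 10 most correlated. Dmp1, Tnfrsf11b, Irf7, Bst2, Jak1, the interferon ligands, Cd14 and Ptprc were named after their values were seen. Motifs were chosen after the sequences were seen. The fit was tested on simulated data, where fold changes were recovered without bias but false calls exceeded the nominal share when each probe set kept its own spread. Alternatives were no block, no normalization, median centring, 50 added to each signal, probe sets above the median, no trend, the methods' t-test, averaging all probe sets per gene (lists only) and leaving out replicates or arrays.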

Additional observations from a re-analysis of the deposited data

How the results depend on the processing

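Ifitm5 was higher in AA under each alternative run for it (the 2 that change the test alone, without the trend and the methods' t-test, were not), with a log2 fold change of 3.86 with 50 added to every signal and 4.05 to 4.97 when a replicate or array was left out. Ifitm7 ranged from -1.57 (without replicate 1) to 0.13 (without replicate 3, the other direction). Of the relatives, 0 were called higher (against 1) without the trend and by the methods' t-test, and 0 to 1 when replicates or arrays were left out. The setting of probe sets above the median leaves out Ifitm10, the 1 called higher, so the 0 found there is no retest. Lower calls among the relatives (1) were 0 without the block, on signals as deposited, after median centring, without the trend and by the methods' t-test, and 0 to 1 with replicates or arrays left out. Among probe sets above the median they were 2, Ifitm3 and Ifitm6, the latter kept there by its control arrays. Osteoblast genes called higher (8) numbered 0 without the trend and 0 by the methods' t-test, and 5 to 9 with replicates or arrays left out. The 1 called lower was 0 after median centring, without the trend and by the methods' t-test, and 0 to 1 with replicates or arrays left out. Interferon-stimulated genes called higher (1) were 0 without the block, without the trend and by the methods' t-test, and 0 to 2 with replicates or arrays left out. Those called lower (6) were 5 without the block, 3 with 50 added, 0 without the trend and by the methods' t-test, and 0 to 5 with replicates or arrays left out. They were 7 on signals as deposited, after median centring and among probe sets above the median, and 4 with all probe sets averaged. The cause was not tested.

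Over all probe sets limma called 1219 higher and 1124 lower. Without the replicate block it called 1089 and 1039, after median centring 842 and 1291, with 50 added 788 and 655, and without replicate 2 it called 556 and 410. Leaving out single arrays without the block gave 380 to 1160 higher and 339 to 898 lower. Both limma without the trend and the methods' t-test called 0 after adjustment, with 2587 and 2612 higher and 2616 and 2827 lower at an unadjusted p under 0.05. Deviations of same-numbered AA and control arrays correlated at 0.0165, 0.00369 and 0.00994 across all probe sets. Above the median signal they correlated at 0.182, 0.0251 and 0.0921. Not every pair passed 0.1, so a pairing by number was not established. As a hint from the data, AA replicate 2 correlated better with control replicate 3 (0.00684 and 0.0412) than with its own number, whereas the replicate 1 arrays correlated best with each other. The main fit still takes the numbers as pairs, because the methods name paired tests, and its standard errors, intervals and calls rest on that. Signal over background, which bears on the dim members, is not given by the values.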
